A study of Mus musculus with 6 samples.

Results

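The genes described here are 50 genes of DNA replication and S phase, taken as every row of the count table whose gene symbol is on a fixed list of 50 symbols. The list was given with earlier results of these data known, so the shares of its genes below are descriptions. All 50 were among the 14831 genes of the table, and all 50 passed edgeR's filter on low counts, which left 14289 genes to test. They were grouped by the step of replication at which their products work, from the licensing of origins to the packaging of new DNA. Before a cell copies its DNA, the origin recognition complex, CDC6 and CDT1 load the ring-shaped MCM helicase onto origins, and CDC45 and the GINS complex then switch the helicase on. Primase and the DNA polymerases extend the new strands, held by the PCNA clamp, while the lagging strand is made in short Okazaki fragments that FEN1 trims and LIG1 joins. E2F transcription factors drive many of these genes as cells pass from G1 into S phase, so their mRNAs are widely read as a measure of cycling cells.

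RNAseq libraries were made from polyadenylated RNA of immortalized mouse pancreatic fibroblasts of mixed strain, 3 with the genotype label WT and 3 labelled Gli2-/-;Gli3-/- and KO. Gli2 and Gli3 encode transcription factors at the end of the Hedgehog (HH) pathway, and the study asked what their combined loss does to pancreatic fibroblasts. The study's methods describe lines grown out from the adult pancreas of mice with floxed Gli alleles, immortalized, then given a GFP adenovirus together with a dsRed lentivirus (WT) or with a Cre adenovirus (KO) and sorted, with no statement of how many independently derived lines the 6 libraries stand for. Every culture was grown to confluence in serum, in its own well, and the p values measure the spread between these 6 libraries, whatever part of it comes from wells, library preparation or lines. With 3 libraries against 3, an exact two-sided permutation test of a single gene cannot go below p = 0.1.

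The 3 WT-labelled libraries held 31728420 to 33905521 counts on genes and the 3 KO-labelled ones held 32781730 to 41035931. The targeted genes went against the labels. Gli2 (chr1:118834132-119053619, GENCODE M21 on GRCm38, as for all gene positions) had 809, 944 and 868 counts in the WT-labelled libraries and 1932, 2316 and 1926 in the KO-labelled ones (log2 fold change 1.05, standard error 0.04, adjusted p = 8.01e-10). Gli3 (chr13:15463235-15730026) had 392, 416 and 398 counts and 1434, 1637 and 1404 (log2 fold change 1.71, standard error 0.05, adjusted p = 2.10e-11). A count over a whole gene also takes in exons outside a deleted part, so it is an incomplete check of a knockout. The study's methods say that the sorted cells were checked for recombination with qPCR and western blot. Whether the labels were exchanged was not tested, and an exchange would turn every direction below, each of which is that of the KO-labelled libraries relative to the WT-labelled ones. Of 10 fibroblast markers 9 were in the table, and their summed level was 57398 to 58131 CPM (counts scaled to a common library size) in the WT-labelled libraries and 47290 to 49652 in the KO-labelled ones. By at least 1.5-fold 4 of the 9 were lower (Dcn, Col3a1, Pdgfra and Pdgfrb), as were 6.1% of all genes tested. Thy1, with 0 to 19 counts in a library, was not tested, and the most abundant marker, Col1a1, was not called. Of 5 epithelial markers 2 were in the table, at a sum of 0.345 to 0.418 and 0.939 to 1.01 CPM, of 5 acinar markers 1, at 7.36 to 8.84 and 13.6 to 15.4 CPM, of 6 immune markers 2, at 2.11 to 2.29 and 2.37 to 2.90 CPM, and of 5 endothelial markers 0. Epcam, Krt19, Ptprc and Pecam1 are not listed, and the part of these markers in the results was not tested.

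Replication genes were higher in the KO-labelled libraries. Of the 50 genes, 21 (42.0%) rose by at least 1.5-fold at an adjusted p under 0.05 (edgeR's quasi-likelihood test, Benjamini-Hochberg adjustment over all genes tested), where 11.6% of all genes tested did. In the other direction 0 of 50 fell past the same limits, against 6.1% of all genes tested. Without the fold limit 38 (76.0%) rose, against 29.9% of all genes, and 3 (6.0%) fell, against 28.8%. The 3 that fell were Rfc1, E2f1 and Orc2. In 36 of the 50 genes every library labelled KO was above every library labelled WT, which held for 32.9% of all genes tested, in 3 every library labelled KO was below, which held for 31.3%, and in 11 the groups overlapped. The median log2 fold change of the 50 genes was 0.45, or 1.37-fold, and that of all genes tested was 0.002. In bulk RNA, more cells in S phase and more of these mRNAs in each cell cannot be told apart.

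**Figure D1:**
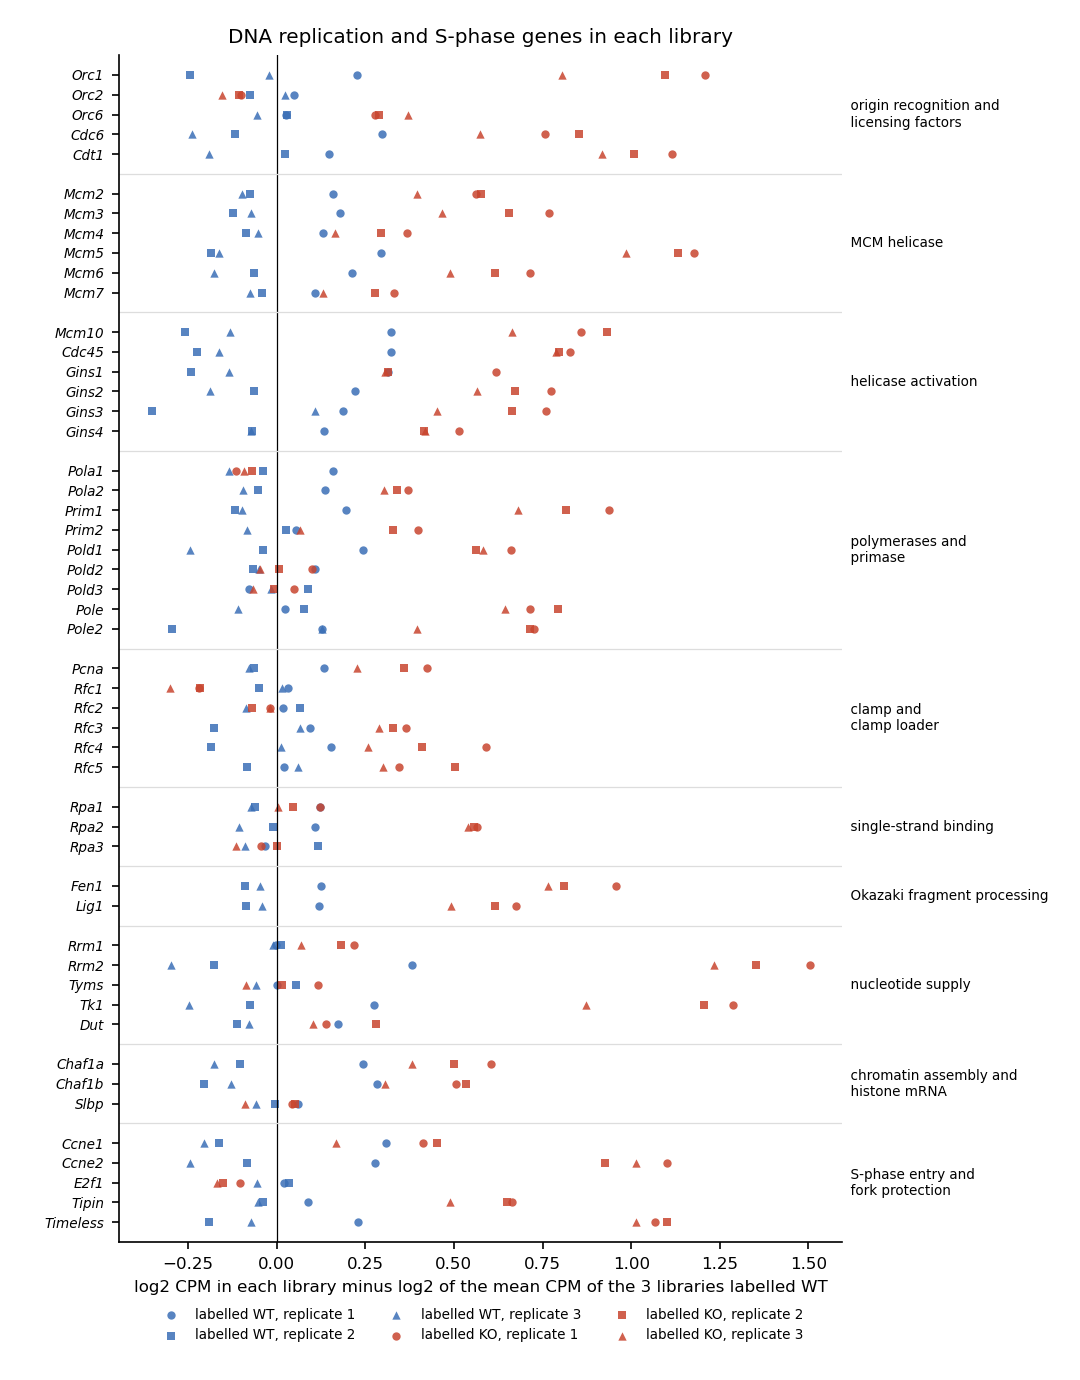
Level of each of the 50 genes in each of the 6 libraries, as log2 CPM minus the log2 of the mean CPM of the 3 WT-labelled libraries (horizontal axis); each symbol is 1 library and genes are grouped by role. In 36 genes the 3 red symbols (labelled KO) all lie to the right of the 3 blue ones (labelled WT), and in 3 genes, Orc2, Rfc1 and E2f1, they all lie to the left.

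The 50 genes did not move by the same amount. Log2 fold changes ran from -0.24 for Rfc1 to 1.37 for Rrm2, with standard errors between 0.04 and 0.19, and 43 were positive and 7 negative. Counts of a member in a library ran from 27 for Orc1 to 8853 for Rrm1. Of the 21 genes past 1.5-fold, 14 stayed past it in all 14 alternative settings, and 7 (Mcm3, Mcm6, Gins3, Pold1, Pole2, Lig1 and Tipin) dropped under it when 1 library or another was left out. The genes just past the limit, which is 0.58 on the log2 scale, were Lig1 at 0.60, Pold1 at 0.60 and Tipin at 0.61, and the nearest gene under it was Rpa2 at 0.55.

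**Figure D2:**
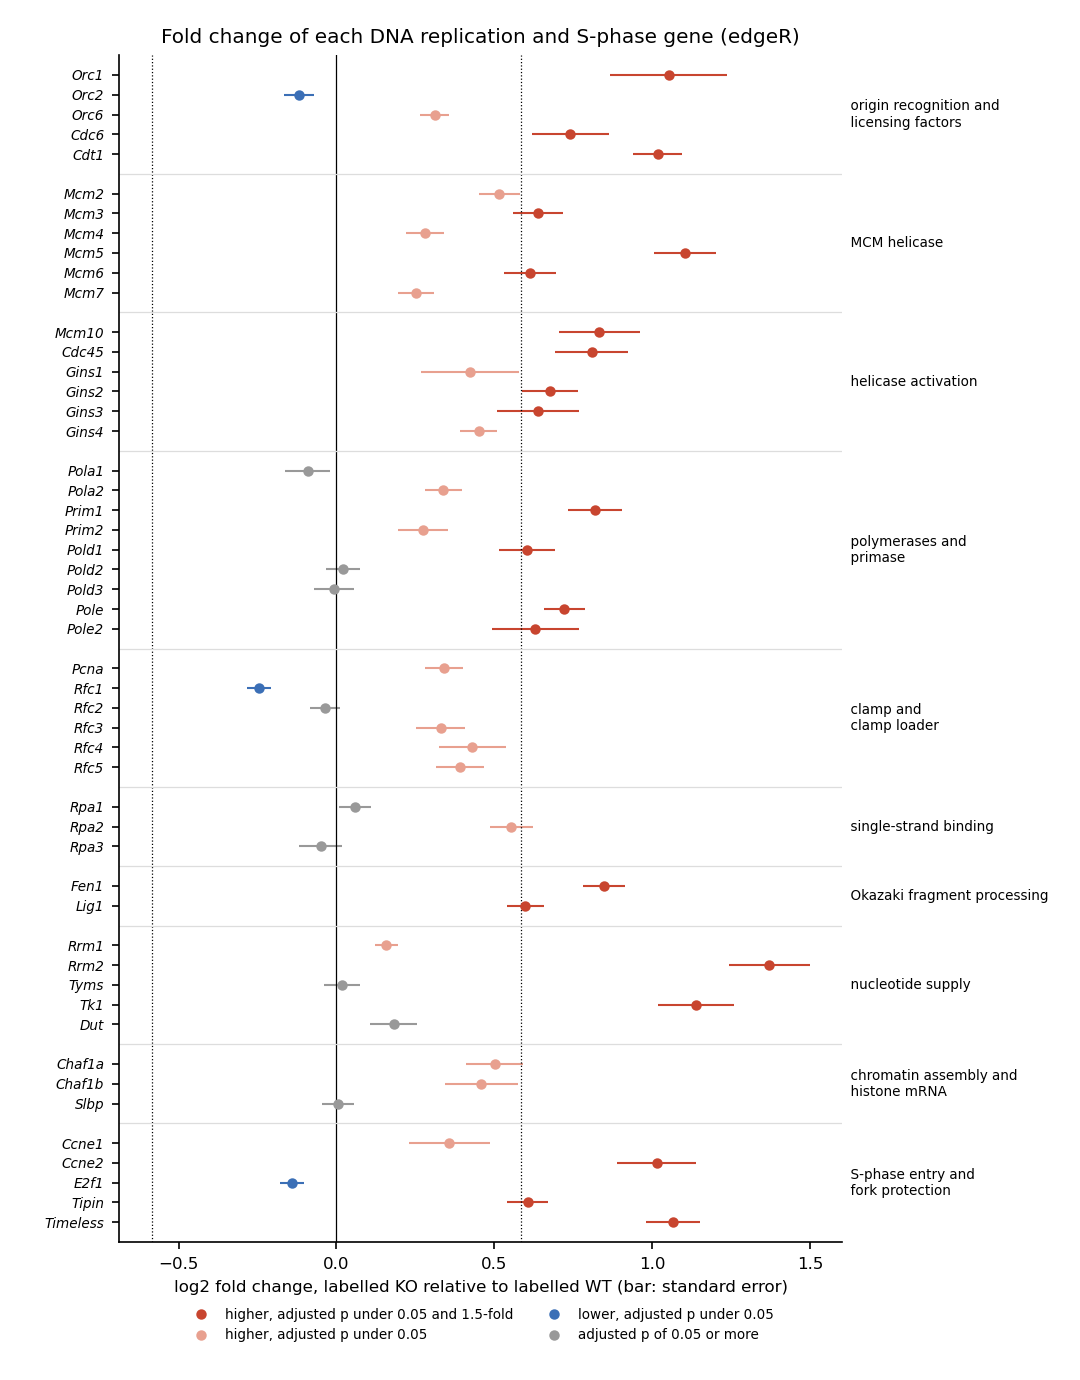
Log2 fold change of each of the 50 genes, labelled KO relative to labelled WT (horizontal axis), with its standard error as a bar; dotted lines mark 1.5-fold in each direction and colour marks the edgeR call. Rrm2, Tk1, Mcm5, Timeless, Orc1, Cdt1 and Ccne2 lie past 1.0, and Rfc1, E2f1 and Orc2 are the 3 genes called lower.

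Promoters of the genes were read for the E2F motif because E2F factors bind many replication genes. The RefSeq table for GRCm38.p6, with windows from 250 bases before to 50 bases after each transcription start, held 41 of the 50 genes. An E2F motif (TTTCCCGC, TTTGGCGC, TTTCGCGC or TTTGCCGC, on either strand) was found in 14 of these 41 genes (34.1%), and in 492 of 10337 tested genes with a window (4.76%). Of the 17 genes past 1.5-fold that had a window, 10 held the motif (58.8%), and of the other 24 genes 4 did (16.7%). The motif was chosen with earlier results of these data known. It means these exact letters in short windows, and a gene counted as without it may hold E2F sites of other letters or elsewhere. The 41 genes had 47 windows, and a match in any window of a gene counted. Lig1 and Mcm7 had more than 1 window and did not hold the motif in all of them. The median log2 fold change was 0.62 in the 14 genes with the motif and 0.36 in the 27 without it. The gene with the motif and the lowest fold change was Pola1, at -0.09, and the highest without it was Rrm2, at 1.37, so the values of genes with and without the motif overlapped, and none of these shares was tested. The windows below are those of the 4 genes with the largest fold changes among the genes past 1.5-fold with an E2F motif, all on the plus strand and written 5′ to 3′, with the motif in capitals. They are chr8:75109259-75109558 for Mcm5, where 2 matches on opposite strands overlap from 153 bases before the start, chr4:108579204-108579503 for Orc1, with the match 27 bases before the start, chr8:122567765-122568064 for Cdt1, with the match 32 bases after it, and chr11:98907901-98908200 for Cdc6, with the match 138 bases before it. Starts are those of RefSeq, and the Cdc6 window lies inside the gene as GENCODE M21 bounds it. So do windows of other genes, among them those of Timeless, E2f1 and Dut, which held no match. The matches of Mcm7 and Lig1 also lay in such windows.
Mcm5: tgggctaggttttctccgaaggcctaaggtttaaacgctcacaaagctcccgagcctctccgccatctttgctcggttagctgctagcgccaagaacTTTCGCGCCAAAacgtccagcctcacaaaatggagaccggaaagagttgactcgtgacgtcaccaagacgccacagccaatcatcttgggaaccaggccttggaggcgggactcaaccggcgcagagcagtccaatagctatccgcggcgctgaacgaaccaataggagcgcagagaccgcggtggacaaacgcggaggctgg
Orc1: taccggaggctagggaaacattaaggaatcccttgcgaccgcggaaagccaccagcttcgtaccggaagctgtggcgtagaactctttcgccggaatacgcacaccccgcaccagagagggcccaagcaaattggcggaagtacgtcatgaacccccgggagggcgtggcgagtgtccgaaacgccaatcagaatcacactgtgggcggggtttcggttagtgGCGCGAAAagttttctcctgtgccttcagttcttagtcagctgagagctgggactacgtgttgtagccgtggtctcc
Cdt1: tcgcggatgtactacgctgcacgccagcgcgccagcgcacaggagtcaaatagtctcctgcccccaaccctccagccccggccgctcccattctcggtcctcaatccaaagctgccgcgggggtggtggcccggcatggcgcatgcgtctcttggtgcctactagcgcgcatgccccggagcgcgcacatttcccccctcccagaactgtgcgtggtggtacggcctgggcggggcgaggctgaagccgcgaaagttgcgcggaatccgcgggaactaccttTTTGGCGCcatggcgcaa
Cdc6: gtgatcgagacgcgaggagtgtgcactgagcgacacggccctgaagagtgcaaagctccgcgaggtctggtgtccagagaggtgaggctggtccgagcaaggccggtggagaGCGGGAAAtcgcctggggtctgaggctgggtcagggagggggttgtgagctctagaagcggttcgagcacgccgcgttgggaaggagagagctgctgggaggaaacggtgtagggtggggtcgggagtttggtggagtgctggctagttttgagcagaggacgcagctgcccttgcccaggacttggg

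Other cell cycle motifs were counted in the same windows. The CCAAT box (CCAAT, either strand) was in the windows of 58.5% of the 41 genes and of 43.1% of all tested genes with a window. The cell cycle homology region (TTTGAA or TTCGAA, either strand) was in 17.1% and 16.2%. In 18 genes of G2 and mitosis with a window these shares were 88.9% and 77.8%, while the E2F motif was in 1 of the 18 (5.56%). A match in a window is a description of its letters and says nothing on binding in these cells.

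Of the 5 genes of origin recognition and licensing, 3 rose past 1.5-fold, Orc6 rose under it and Orc2 fell. Orc1 (chr4:108579423-108614833), the subunit of the origin recognition complex whose level follows the cell cycle, was at 1.12, 0.806 and 0.940 CPM in the WT-labelled libraries and 2.20, 2.04 and 1.67 in the KO-labelled ones (log2 fold change 1.05, standard error 0.19, adjusted p = 3.22e-04). It was the lowest of the 50 genes, with 35, 27 and 30 counts against 78, 85 and 55, and still the groups did not overlap. Cdt1 (chr8:122568015-122573554), the loading factor of the MCM helicase, was at 14.1, 13 and 11.2 CPM and 27.7, 25.7 and 24.1 (log2 fold change 1.02, standard error 0.08, adjusted p = 2.27e-07), with every library labelled KO well above the highest library labelled WT. Cdc6 (chr11:98907801-98923940), the partner of CDT1 in loading, was at 7.40, 5.55 and 5.11 CPM and 10.2, 10.9 and 8.97 (log2 fold change 0.74, standard error 0.12, adjusted p = 1.93e-04), and here replicate 1 labelled WT came closest to the other group. Orc2 (chr1:58462771-58505109), a core subunit of the same complex as Orc1, was at 30.0, 27.5 and 29.4 CPM and 27, 26.9 and 26 (log2 fold change -0.12, standard error 0.05, adjusted p = 0.0440). The groups of Orc2 lay just apart and its call was lost in 9 of 14 alternatives, with an adjusted p of up to 0.28.

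All 6 subunits of the MCM helicase rose, 3 of them (Mcm3, Mcm5 and Mcm6) past 1.5-fold. Mcm5 (chr8:75109569-75128439) was at 27.6, 19.8 and 20.1 CPM in the WT-labelled libraries and 51, 49.3 and 44.6 in the KO-labelled ones (log2 fold change 1.10, standard error 0.10, adjusted p = 8.55e-07). Mcm7 (chr5:138164583-138172422) was at 55.3, 49.8 and 48.6 CPM and 64.4, 62.2 and 56.1 (log2 fold change 0.25, standard error 0.06, adjusted p = 0.00222), so the smallest of the 6 changes came from a subunit of the same ring, and the lowest library labelled KO stood only just above the highest WT-labelled one. Mcm2, Mcm3, Mcm4 and Mcm6 had log2 fold changes of 0.52, 0.64, 0.28 and 0.61. The ring holds its 6 subunits in equal number, and their mRNA levels were compared per kilobase of merged exon. Merged exons take in every annotated exon of a gene and can be longer than its mRNA. Levels per kilobase, and ranks by them, therefore depend in part on the annotation. In the WT-labelled libraries the mean levels of Mcm2 to Mcm7, in order of name, were 8.05, 9.87, 12.6, 5.64, 8.72 and 11.6 CPM per kilobase. In the KO-labelled libraries they were 11.5, 15.3, 15.3, 12.1, 13.3 and 13.8. Mcm5 was the lowest of the 6 in the WT-labelled libraries and was within the range of the others in the KO-labelled ones.

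The 6 genes of helicase activation all rose, 4 of them past 1.5-fold. Mcm10 (chr2:4989714-5012791), which is needed to start unwinding, was at 6.70, 4.48 and 4.89 CPM and 9.72, 10.2 and 8.48 (log2 fold change 0.83, standard error 0.13, adjusted p = 1.14e-04). Cdc45 (chr16:18780447-18811987), a part of the active helicase, was at 7.24, 4.96 and 5.17 CPM and 10.3, 10.1 and 10.0 (log2 fold change 0.81, standard error 0.12, adjusted p = 6.28e-05). In both genes replicate 1 labelled WT was above the other 2 of its group and below every KO-labelled library. The GINS genes Gins2, Gins3 and Gins4 had log2 fold changes of 0.68, 0.64 and 0.45. Exons of Gins2 overlap those of an opposite-strand gene over 67.3% of their length, and whether counting used strand is not stated. Its count may therefore hold reads of that gene or lack reads in the shared part. Gins1 (chr2:150905400-150931280), the remaining subunit, was at 3.29, 2.24 and 2.41 CPM and 4.07, 3.29 and 3.27 (log2 fold change 0.42, standard error 0.16, adjusted p = 0.0333), and its groups overlapped. The call of Gins1 was lost in 4 of 14 alternatives, with an adjusted p of up to 0.149.

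Among 9 genes of the polymerases and primase, 4 rose past 1.5-fold, 2 rose under it and 3 did not pass the test. Prim1 (chr10:128015168-128030037), the catalytic subunit of primase, was at 17.6, 14.1 and 14.3 CPM and 29.4, 27 and 24.6 (log2 fold change 0.82, standard error 0.08, adjusted p = 3.36e-06), with a wide gap between the groups. Pola1 (chrX:93304767-93632155), the catalytic subunit of polymerase alpha, to which primase is bound, was at 19.4, 17 and 15.9 CPM and 16.1, 16.6 and 16.3 (log2 fold change -0.09, standard error 0.07, adjusted p = 0.290). Its 3 KO-labelled libraries lay inside the range of the WT-labelled ones. Both listed genes of polymerase epsilon, which copies the leading strand, rose past 1.5-fold, Pole by 0.72 and Pole2 by 0.63 on the log2 scale. Its genes outside the fixed list, Pole3 and Pole4, rose under 1.5-fold, by 0.16 (adjusted p = 0.0109) and 0.21 (adjusted p = 0.00118). Polymerase delta, which copies the lagging strand, was also split. Its catalytic subunit gene Pold1 rose by 0.60 while Pold2 and Pold3 had log2 fold changes of 0.02 (adjusted p = 0.748) and -0.01 (adjusted p = 0.922). Pold4, outside the fixed list, had a log2 fold change of 0.07 (adjusted p = 0.219). Pola2 and Prim2 rose by 0.34 and 0.28, and the call of Prim2 was lost without replicate 1 labelled KO (adjusted p = 0.0525).

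None of the 6 genes of the clamp and its loader passed 1.5-fold in either direction, while 4 rose and 1 fell by the adjusted p alone. Rfc4 (chr16:23113943-23127737), a small subunit of replication factor C, which opens the clamp, was at 6.99, 5.52 and 6.33 CPM and 9.46, 8.35 and 7.51 (log2 fold change 0.43, standard error 0.11, adjusted p = 0.00388). Rfc1 (chr5:65261850-65335670), the large subunit of the same loader, was at 70.3, 66.5 and 69.5 CPM and 59, 59.2 and 55.8 (log2 fold change -0.24, standard error 0.04, adjusted p = 1.19e-04). Rfc1 was the largest fall among the 50 genes, and all 3 KO-labelled libraries were below all 3 WT-labelled ones. Rfc3 and Rfc5 rose by 0.33 and 0.39, and Rfc2 had a log2 fold change of -0.04 (adjusted p = 0.538). Pcna, the clamp itself and a common stain for cycling cells, rose by 0.34, from 77.6 ± 6.55 to 98.2 ± 6.74 CPM (mean ± SD of 3 wells), and had the highest level per kilobase of all 50 genes in both groups, at 32.3 and 40.9 CPM per kilobase.

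Single-strand binding genes had the lowest median log2 fold change of the role groups, 0.06, with 1 of 3 called. Rpa2 (chr4:132768332-132778752), the subunit of replication protein A that checkpoint kinases phosphorylate, was at 10.4, 9.58 and 8.96 CPM and 14.3, 14.2 and 14 (log2 fold change 0.55, standard error 0.07, adjusted p = 1.54e-05), with no overlap. Rpa3 (chr6:8255936-8259173), the smallest subunit, was at 13.7, 15.1 and 13.1 CPM and 13.6, 14 and 12.9 (log2 fold change -0.05, standard error 0.07, adjusted p = 0.550), and the groups overlapped. Rpa1, the large subunit, had a log2 fold change of 0.06 (adjusted p = 0.333), and it passed the test only without replicate 1 labelled WT.

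Both genes of Okazaki fragment processing rose past 1.5-fold. Fen1 (chr19:10199132-10204169), the flap endonuclease, was at 20.5, 17.7 and 18.3 CPM and 36.6, 33 and 32 (log2 fold change 0.85, standard error 0.07, adjusted p = 2.23e-07). Lig1 (chr7:13277283-13311433), the ligase that seals the fragments, was at 38.7, 33.6 and 34.7 CPM and 57, 54.6 and 50.2 (log2 fold change 0.60, standard error 0.06, adjusted p = 2.03e-06). Neither gene's groups overlapped, but exons of Fen1 overlap opposite-strand genes over 84.2% of their length, and strand-specific counting is not stated.

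The 5 genes of nucleotide supply held the largest rise and some of the smallest changes. Rrm2 (chr12:24708241-24714146), the small subunit of ribonucleotide reductase made in S phase, was at 17.8, 12.1 and 11.1 CPM in the WT-labelled libraries and 38.7, 34.8 and 32.1 in the KO-labelled ones (log2 fold change 1.37, standard error 0.13, adjusted p = 1.22e-06). Tk1 (chr11:117815526-117826092), thymidine kinase of the salvage pathway, was at 19.3, 15.2 and 13.5 CPM and 39.1, 36.9 and 29.3 (log2 fold change 1.14, standard error 0.12, adjusted p = 3.99e-06). In both genes replicate 1 was the highest of the WT-labelled libraries and replicate 3 the lowest of the KO-labelled ones, with a clear gap between them. Tyms (chr5:30058202-30073617), thymidylate synthase, which makes the same nucleotide from scratch, was at 23.6, 24.5 and 22.7 CPM and 25.6, 23.9 and 22.2 (log2 fold change 0.02, standard error 0.06, adjusted p = 0.815), and the groups overlapped. Rrm1, the large subunit of ribonucleotide reductase, rose by 0.16 on the log2 scale, and Dut, which keeps uracil out of DNA, had a log2 fold change of 0.18 (adjusted p = 0.0555) and passed the test in 5 of 14 alternatives.

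Of the genes of chromatin assembly and histone mRNA, Chaf1a and Chaf1b rose under 1.5-fold and Slbp did not pass the test. Chaf1a (chr17:56040439-56072289), the large subunit of chromatin assembly factor 1, was at 28.3, 22.3 and 21.2 CPM and 36.3, 33.9 and 31.2 (log2 fold change 0.50, standard error 0.09, adjusted p = 3.82e-04), though 52.5% of its exon length overlaps an opposite-strand gene. Chaf1b, its partner, rose by 0.46 on the log2 scale. Slbp (chr5:33634952-33652574), which binds the stem-loop of histone mRNAs, was at 32, 30.6 and 29.5 CPM and 31.6, 31.8 and 28.9 (log2 fold change 0.01, standard error 0.05, adjusted p = 0.928), the change nearest to 0 among the 50 genes.

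In the group of S-phase entry and fork protection, 3 of 5 genes rose past 1.5-fold. Timeless (chr10:128232065-128252941), which holds stalled forks together with TIPIN, was at 11.6, 8.72 and 9.46 CPM and 20.8, 21.3 and 20.1 (log2 fold change 1.06, standard error 0.09, adjusted p = 3.21e-07). Its partner Tipin rose by 0.61 on the log2 scale. Ccne2 (chr4:11191351-11204779), a cyclin that activates CDK2 at S-phase entry, was at 3.64, 2.84 and 2.54 CPM and 6.44, 5.71 and 6.06 (log2 fold change 1.01, standard error 0.13, adjusted p = 1.65e-05), and the groups of Timeless and Ccne2 were far apart. The related cyclin gene Ccne1 rose by 0.36 (adjusted p = 0.0296) with overlapping groups, and its call was lost in 4 of 14 alternatives, with an adjusted p of up to 0.132. E2f1 (chr2:154559407-154569892), the transcription factor that activates many of the other genes, was at 72.3, 72.9 and 68.5 CPM and 66.3, 64.1 and 63.3 (log2 fold change -0.14, standard error 0.04, adjusted p = 0.00529). E2f1 fell by a small amount while 38 genes of the list rose, and its call was lost only with upper-quartile scaling (adjusted p = 0.0717). It was among the most abundant of the 50 genes per kilobase of merged exon, second to Pcna in the WT-labelled libraries, at 22.6 and 20.5 CPM per kilobase in the 2 groups.

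Ratios of counts within a library do not depend on how libraries are scaled, and 8 pairs of genes that work together were compared in this way. The pairs were chosen after the fold changes had been seen, as a gene that moved and a partner that moved less, so the ratios are a description without a test. The mean ratio of Rrm2 to Rrm1 was 0.0729 ± 0.0193 in the WT-labelled libraries and 0.168 ± 0.00812 in the KO-labelled ones (mean ± SD of 3 wells), a 2.31-fold difference. Orc1 to Orc2 differed by 2.25-fold, Tk1 to Tyms by 2.16-fold and Prim1 to Pola1 by 1.88-fold. The ratio of Mcm5 to Mcm7 was 0.5, 0.398 and 0.414 in the WT-labelled libraries, and in the KO-labelled ones it was 0.791, 0.794 and 0.795. It differed by 1.81-fold, and the 3 KO-labelled libraries were almost the same in it. For Ccne2 to Ccne1, Pold1 to Pold2 and Rpa2 to Rpa1 the differences were 1.59, 1.5 and 1.41-fold. In none of the 8 pairs did the groups overlap, which the choice of the pairs made likely in advance.

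**Figure D3:**
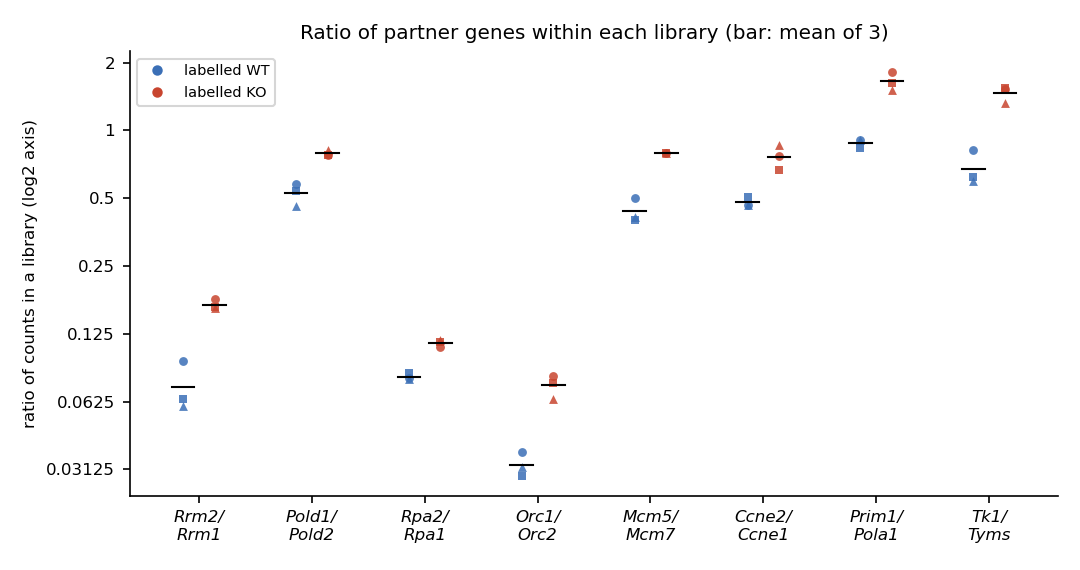
Ratio of the counts of 2 partner genes in the same library (vertical axis, log2 scale) for 8 pairs; circles, squares and triangles are replicates 1, 2 and 3, blue is labelled WT, red is labelled KO and the bar is the mean of 3 libraries. Every red group lies above its blue group, from 1.41-fold for Rpa2 to Rpa1 up to 2.31-fold for Rrm2 to Rrm1, in pairs chosen after the fold changes had been seen.

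The libraries of a group differed from each other in a shared way across the 50 genes. Replicate 1 was the highest of the 3 WT-labelled libraries in 40 of the 50 genes, where it was the highest in 38% of all genes tested. Replicate 3 was the lowest of the 3 KO-labelled ones in 44 of the 50, where it was the lowest in 37.9% of all genes tested. The summed level of the 50 genes was 1479, 1329 and 1306 CPM in the WT-labelled libraries and 1809, 1747 and 1623 CPM in the KO-labelled ones, or 1371 ± 93.9 and 1726 ± 94.9 CPM (mean ± SD of 3 wells). The median coefficient of variation between wells was 10.1% for the 50 genes and 4.73% for all genes tested in the WT-labelled libraries, and 6.81% and 4.46% in the KO-labelled ones. The same order was seen in 20 genes of G2 and mitosis, where replicate 1 labelled WT was the highest of its group in 18 and replicate 3 labelled KO the lowest of its group in 20. Leaving out replicate 1 labelled WT raised the count of replication genes past 1.5-fold from 21 to 26, and leaving out replicate 2 labelled WT or replicate 1 labelled KO lowered it to 14.

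**Figure D4:**
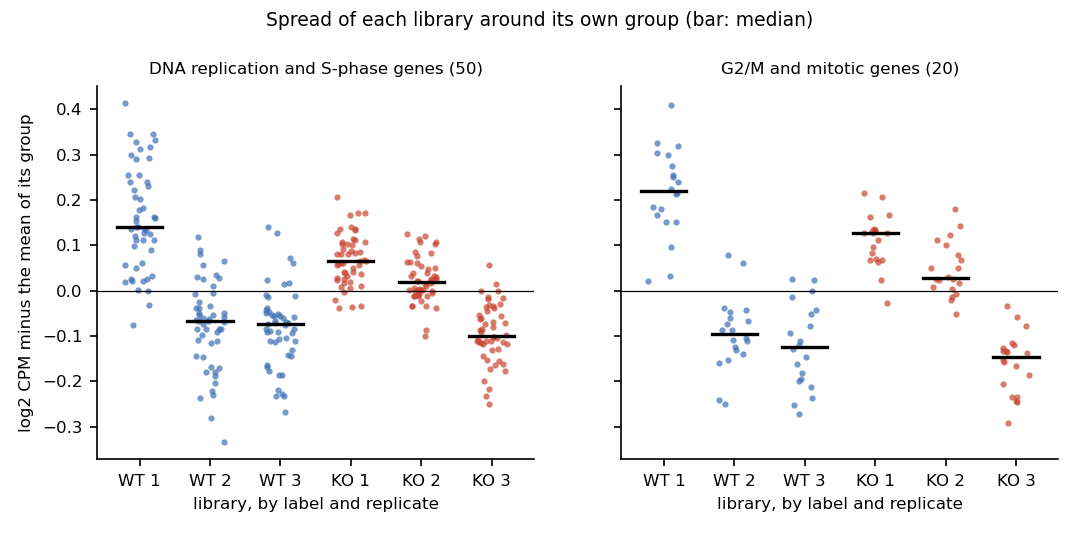
Deviation of each library from the mean of its own group, in log2 CPM (vertical axis), for the 50 replication genes (left) and 20 genes of G2 and mitosis (right); each point is a gene and the bar is the median. Replicate 1 labelled WT lies above its group in both panels, with medians of 0.14 and 0.22, and replicate 3 labelled KO lies below, with medians of -0.10 and -0.15.

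Further lists of replication and cell cycle genes are read against the shares of all genes tested, which were 11.6% higher and 6.1% lower past 1.5-fold and 29.9% and 28.8% by the adjusted p alone. Of 38 other replication genes, 13 (34.2%) rose past 1.5-fold and 0 fell past it, and by the adjusted p alone 25 (65.8%) rose and 5 (13.2%) fell, with a median log2 fold change of 0.26. The 5 lower genes, named after their values were seen, were Mtbp, Mcmbp, Orc3, Rbbp4 and Top1, at -0.45 to -0.09. The 3 largest rises were in Asf1b, a histone chaperone, at 1.21 (SE 0.12), Ticrr, which helps to activate origins, at 1.16 (SE 0.12), and Chtf18, of an alternative clamp loader, at 1.05 (SE 0.12). Of 15 replication checkpoint genes, 5 (33.3%) rose past 1.5-fold and 0 fell past it, with 10 (66.7%) higher and 0 lower by the adjusted p and a median of 0.26. Fancd2, of the Fanconi anemia repair pathway, rose by 1.74 (SE 0.09), more than any of the 50 replication genes, and Clspn, an adaptor for the kinase CHK1, by 1.01 (SE 0.10). Of 33 tested E2F, RB and G1/S regulators, which include both activators and inhibitors of S-phase entry, 5 (15.2%) rose past 1.5-fold, a share near the 11.6% of all genes, and 0 fell past it. By the adjusted p alone 20 (60.6%) were higher and 5 (15.2%) lower, with a median of 0.17. Ccna2, the cyclin of S and G2 phase, rose by 1.63 (SE 0.10), the activator E2f2 by 1.40 (SE 0.16) and the repressor E2f7 by 1.39 (SE 0.10). The 5 lower genes, named after their values were seen, were the CDK inhibitor genes Cdkn2c, Cdkn2b, Cdkn1a and Cdkn2a, at -0.51, -0.39, -0.29 and -0.23 (SE 0.04, 0.09, 0.03 and 0.04), and Ccnd1, the G1 cyclin, at -0.36 (SE 0.03). The CDK inhibitor genes of the list did not all fall. Cdkn2d rose by 0.53 (SE 0.07), Cdkn1b was not called, at 0.06 (SE 0.03), and Cdkn1c had too few counts to be tested.

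The genes of G2 and mitosis had larger fold changes than most replication genes. All 20 rose past 1.5-fold, with a median log2 fold change of 1.64 and a lowest value of 1.04, which 5 of the 50 replication genes (Rrm2, Tk1, Mcm5, Timeless and Orc1) exceeded. Ccnb2, Hmmr and Ccnb1 rose by 2.10, 1.93 and 1.92 (SE 0.09, 0.10 and 0.11). Mki67, the gene of the Ki-67 stain for cycling cells, was at 31, 26.6 and 29.5 CPM in the WT-labelled libraries and 71.3, 70.6 and 68.6 in the KO-labelled ones (log2 fold change 1.27, standard error 0.05, adjusted p = 3.42e-10). The lists are described by their counts, and the difference between them was not tested.

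**Figure D5:**
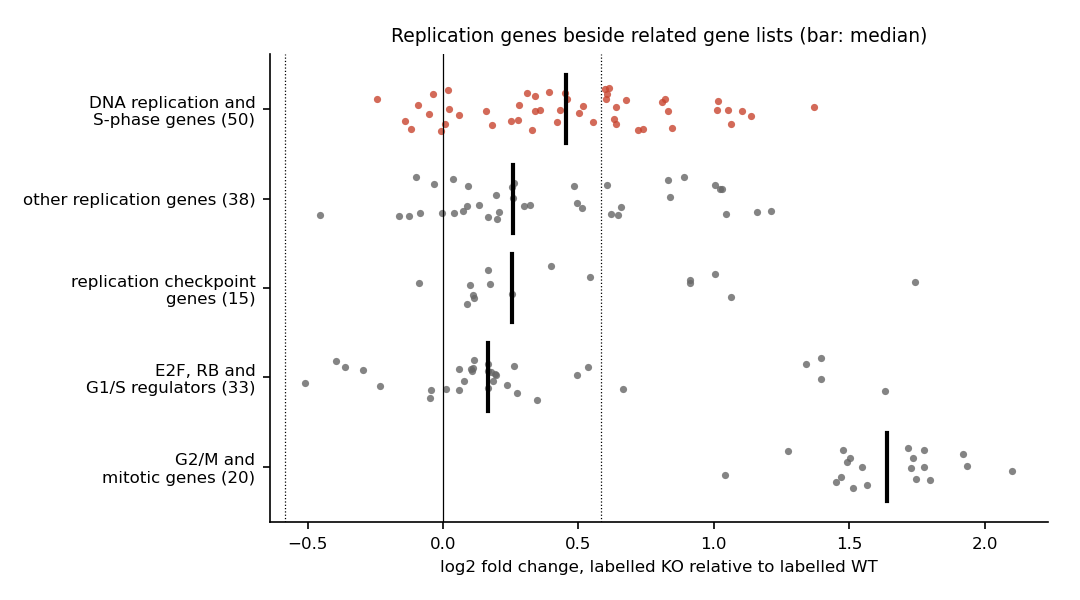
Log2 fold change of each tested gene (points), labelled KO relative to labelled WT (horizontal axis), in 5 gene lists with the number of genes tested in brackets; the bar is the median and dotted lines mark 1.5-fold. The medians are 0.45 for the 50 replication genes, 0.26, 0.26 and 0.17 for the next 3 lists and 1.64 for the genes of G2 and mitosis.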

How the data were processed

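Raw counts of reads per gene and log2 CPM values for the same genes and 6 libraries were deposited by the authors, and the submitters' processing notes name STAR 2.7.2b, featureCounts, limma and the build GRCm38.p6, while strand use in counting is not given in the sources used here. Each deposited log2 value was found to be a count with 0.5 added, put on the log2 scale after scaling of the library. Libraries came from 250 ng of RNA with 13 cycles of PCR. All 50 members matched GENCODE M21 by identifier and version, and merged exon lengths were taken from it. Replicate numbers follow the order of the samples and pair nothing. Libraries within each group differed beyond sampling noise (chi-square per degree of freedom 2.47 to 7.53), and all 6 were kept.

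The main test was the quasi-likelihood F test of edgeR 4.0.16 (R 4.3.3) with TMM factors, over the 14289 genes that filterByExpr kept, with Benjamini-Hochberg adjustment. The script was tested on simulated data. CPM values use the TMM-scaled library sizes. Genes were called by an adjusted p under 0.05 together with a 1.5-fold limit, or by the adjusted p alone. A count of 3 is between 0.0720 and 0.0957 CPM. Members, lists, role groups and motifs were chosen with earlier results of these data known. Values in every library are given for up to 12 called members by size of change, the highest and lowest of each role group, the member nearest to 0, Gli2 and Gli3, and up to 3 called genes of each further list, with Mki67, are named. A gene that this rule would name is not reported here. The lists are not independent, since Cdc25a is in 2 of them. The alternatives tried were DESeq2 1.42.0, voom in limma 3.58.1, limma fitted to the deposited log2 values, scaling by RLE, by the upper quartile or by totals, no filter or at least 10 counts in each library, a 2-fold limit, and leaving out each library in turn.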

Additional observations from a re-analysis of the deposited data

How the results depend on the processing

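The call by adjusted p was unchanged for 43 of the 50 replication genes in all 14 alternatives, it was lost at least once for Prim2, Gins1, Orc2, Ccne1 and E2f1, and it was gained at least once for Rpa1 and Dut. No called gene changed direction. The 1.5-fold call was kept by all 21 genes under every other scaling, filter and tool, and by 14 of them when each library was left out in turn, which gave 14 to 26 genes. With a 2-fold limit the counts were 7 of 50 replication genes, 6 of 38 other replication genes and 3 of 15 replication checkpoint genes. In all, 1456 of 14289 genes tested passed it, where a higher limit by its construction leaves fewer. At this limit the share of the replication genes was much nearer to that of all genes than at 1.5-fold. All 20 genes of G2 and mitosis passed it, at a lowest log2 fold change of 1.04. The median log2 fold change of the 50 genes was 0.39 to 0.60 with a library left out, highest without replicate 1 labelled WT. All 20 genes of G2 and mitosis stayed past 1.5-fold in every alternative. No paired analysis was possible because the labels give the groups no shared replicate numbers. Depth limits Orc1 most, with 27 to 85 counts in a library. How many independently made lines the separate wells stand for is not stated, so the spread between lines cannot be told apart from that between wells, and the genotype labels go against the counts of Gli2 and Gli3.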

Other observations

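Replication-dependent histone genes, whose proteins package the newly copied DNA, were mostly not called in either direction. The table lists 28 such genes, of which 26 were tested, and 1 (Hist1h1d, 3.85%) was higher and 1 (Hist1h2bh) lower by at least 1.5-fold, against 11.6% and 6.1% of all genes tested. By the adjusted p alone 1 (3.85%) was higher and 5 (19.2%) lower, against 29.9% and 28.8% of all genes, with a median log2 fold change of -0.04. Both genes were named after their values were seen. The most abundant, Hist1h1c, was at 242 CPM in the libraries labelled WT and 228 in those labelled KO. It was 1 of the 5 lower genes by edgeR's test (log2 fold change -0.09, adjusted p = 0.0234). So was the next most abundant, Hist1h2bc, at 75.3 and 59.3 CPM (log2 fold change -0.34, adjusted p = 3.81e-06), also named after its values were seen. Most mRNAs of these genes lack a poly-A tail and the libraries were made from polyadenylated RNA, so their counts are a poor measure of their level.

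Levels of the 50 replication genes per kilobase of merged exon ran from 0.274 CPM per kilobase for Orc1 to 32.3 for Pcna in the libraries labelled WT, and from 0.566 to 40.9 for the same genes in those labelled KO. Rrm2 stood at rank 22 of 50 by this level in the libraries labelled WT and at rank 13 in those labelled KO, and Tk1 at ranks 32 and 24.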
